A study of Mus musculus with 6 samples.

Results

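The solute carriers for organic nutrients and solutes are membrane proteins that move sugars, amino acids, vitamins, carnitine, nucleosides and similar small molecules across cell and organelle membranes. They were chosen by gene symbol, with earlier results of these data known. Taken was every probe set with a single symbol of 21 carrier families (Slc1a, Slc2a, Slc3a, Slc5a, Slc6a, Slc7a, Slc10a, Slc13a, Slc14a, Slc15a, Slc16a, Slc17a, Slc18a, Slc22a, Slc28a, Slc29a, Slc35a, Slc36a, Slc37a, Slc38a and Slc43a) and of the Slco family, without Slc2a2, Slc2a5, Slc5a1 and Slc10a2. The choice gave 82 probe sets for 65 genes, out of 12422 probe sets and 8251 genes with a symbol. No probe set of the Slc13a, Slc14a, Slc28a, Slc36a or Slc43a families was among them.

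Gene expression was compared between 3 Cftr null mice (-/-) and 3 Cftr control mice (+/+), aged 40 days. Cftr encodes the chloride and bicarbonate channel whose loss causes cystic fibrosis. All 6 mice were congenic on a black6 background and had been given Peptamen, a liquid diet, from day 10 of life against blockage of the gut, so both groups shared that diet. Each group held 2 males and 1 female, null replicate 2 and control replicate 3 being the females. RNA of the whole small intestine of 1 mouse was hybridised to each 1-colour array, so that duodenum, jejunum and ileum, and epithelium and muscle, were measured as a mixture. The Cftr allele and its mode of deletion are not given in the labels.

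Carriers of the intestinal epithelium work in series. Sodium- or proton-coupled carriers of the brush border take up sugars, amino acids and vitamins from the lumen against their gradients, and exchangers and facilitative carriers of the basolateral membrane pass them on to the blood. Many amino acid exchangers are heteromeric: a light chain of the Slc7a family carries the substrate, and a heavy chain, Slc3a1 or Slc3a2, brings it to the membrane. Other family members serve organelles, such as Slc37a4 in the endoplasmic reticulum and Slc35a1 and Slc35a2 in the Golgi apparatus.

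The values were scaled intensities in arbitrary units, with an equal 2%-trimmed mean of 500.3 on every array, and with 3 mice a group their precision is limited. The brightest Cftr probe set was at 325.9, 295.6 and 368.5 in null mice, against 801.6, 1017.5 and 1002.0 in control mice (log2 change -1.47, adjusted p = 0.00421). Of 8 enterocyte markers on the array, such as Vil1 and Fabp2, all 8 were bright enough to be tested, and none was at 0 in any mouse.

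In Cftr null intestine, 4 carrier transcripts fell and 0 rose. The 4 were 9.52% of the carrier probe sets tested. Of all probe sets tested, 1.87% were lower and 1.13% higher. They were Slc5a11, the sodium-coupled myo-inositol carrier, Slc6a20b, of the proline carrier subfamily, Slc7a8, an exchanger of neutral amino acids, and Slc37a4, the glucose-6-phosphate carrier of the endoplasmic reticulum. Of these 4 calls, only that of Slc5a11 held whichever mouse was left out. Slc5a11 fell at least 3.58-fold, Slc6a20b 2.91-fold, Slc7a8 2.23-fold and Slc37a4 1.95-fold. The other carriers with a measurable level did not pass the test, among them the glucose carrier Slc2a1 and the amino acid carrier Slc7a5, whose 3 null values all lay above the 3 control values.

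A probe set was tested when its intensity was above 109.7, a level that 40% of all values do not exceed, on 3 or more of the 6 arrays, and 42 of the 82 carrier probe sets, for 39 of the 65 genes, met this filter. Differences are null minus control on the scale of log2(intensity + 12), tested with limma on all 7601 probe sets that met the filter, with Benjamini-Hochberg adjustment and a threshold of 0.05. Of the 42, 4 (9.52%) were lower in null mice, where 1.87% of all tested probe sets were, and 0 were higher, where 1.13% of all were. Because the carriers were chosen with earlier results of these data known, the shares given here are descriptions and not a test. At an unadjusted p under 0.05 there were 2 carrier probe sets higher and 9 lower in null mice, together 26.2% of the 42, against 17.3% of all probe sets. The groups did not overlap in 10 of the 42 carrier probe sets, or 23.8%, which was also the share over all probe sets (23.8%). Null values lay below control values in 8 of the 10, or 19.0% of the 42, against 10.8% of all probe sets, and above in 2, or 4.76%, against 13.1%.

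With each gene represented by its brightest tested probe set, 21 of the 39 carrier genes had a log2 change below 0 and 18 above 0. The median log2 change was -0.06, beside 0.02 over all 5717 genes tested, and it was 0.01 without null replicate 1. The quartiles were -0.44 and 0.15 for the carriers, against -0.17 and 0.20 for all genes. In 19 of the 39 the change was smaller than 0.25 in either direction, and in 5 it was larger than 1. These counts describe the genes that met the filter and not the 26 carrier genes that were too dim.

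**Figure D1:**
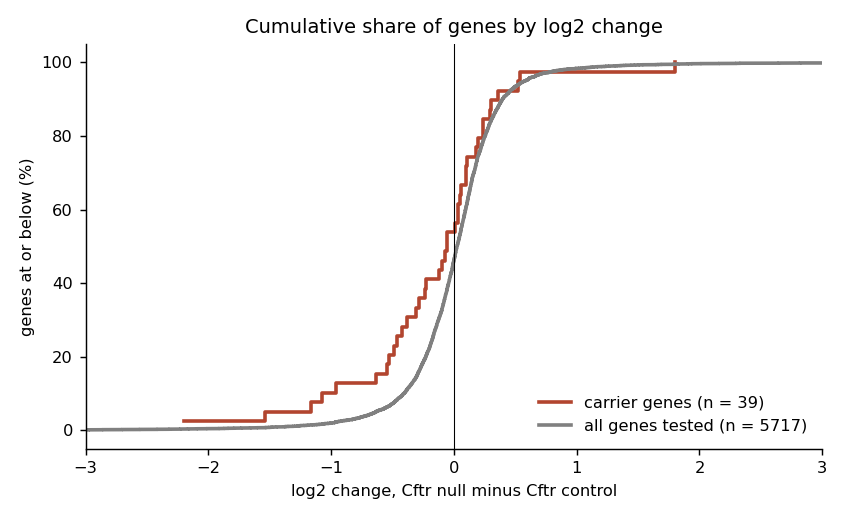
Cumulative share of genes (vertical axis, percent) at or below each log2 change, null minus control (horizontal axis), for the 39 tested carrier genes and for all 5717 tested genes. The carrier curve lies above that of all genes on the left of 0, where its lower quartile is -0.44 against -0.17, and runs close to it on the right.

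Of the 4 calls, that of Slc5a11 held without any 1 mouse (adjusted p between 0.0184 and 0.0391), and the other 3 were each lost in some of these smaller fits. Fewer mice also cut the calls over the whole array. Lower calls over all probe sets went from 142 to 35 without null replicate 1 and to 116 without null replicate 2. Over 15 other fits the log2 change stayed between -1.77 and -1.26 for Slc6a20b, -1.36 and -1.01 for Slc7a8, and -1.15 and -0.83 for Slc37a4. Without null replicate 1 or null replicate 3, only Slc5a11 of the 4 passed. Slc5a11 and Slc6a20b passed without control replicate 2 or control replicate 3. Without null replicate 2, 3 passed (Slc5a11, Slc6a20b and Slc7a8), and without control replicate 1, 3 passed (Slc5a11, Slc7a8 and Slc37a4). Since the groups do not overlap in any of the 4, leaving out a mouse could not turn their direction. The fit without a variance trend called 2, Slc5a11 and Slc6a20b.

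Among the sugar and sugar-related carriers, Slc5a11 showed the largest change of the 39 carrier genes. This carrier, also known as SMIT2, takes up myo-inositol with sodium. Its intensity was 127.6, 70.0 and 62.5 in null mice, against 445.7, 466.6 and 366.0 in control mice. Every null value was thus far below the lowest control value, and 2 of the 3 null values lay under the filter level of 109.7. The means were 86.7 ± 35.6 in null and 426.1 ± 53.1 in control mice (SD, n = 3 each). The log2 change was -2.20 (SE 0.26, 95% confidence interval -2.81 to -1.59, adjusted p = 0.00704). Because the null mean lay under the filter level, the fold is a bound taken against that level, at least 3.58-fold lower. It passed in all 15 other fits, with an adjusted p between 0.00507 and 0.0391. The change was -2.20 between the female mice and -2.20 between the means of the males.

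Slc5a6, the sodium-coupled carrier of biotin and pantothenate, is the other carrier of this family among the 39 genes. It read 183.4, 223.7 and 104.0 in null mice, against 312.5, 470.4 and 304.4 in control mice, and the groups did not overlap. Its log2 change of -1.07 (SE 0.29, 95% confidence interval -1.75 to -0.39) did not pass (adjusted p = 0.107). The adjusted p lay between 0.0878 and 0.218 over the 15 other fits.

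Slc37a4 exchanges glucose-6-phosphate for phosphate across the endoplasmic reticulum membrane and delivers it to glucose-6-phosphatase. It read 845.0, 820.1 and 626.7 in null mice, against 1144.2, 1683.3 and 1700.4 in control mice. All null values were below the lowest control value, that of control replicate 1, which stood apart from the other 2 controls. The means were 763.9 ± 119.5 in null and 1509 ± 316 in control mice (SD, n = 3 each), 1.95-fold lower (log2 change -0.96, SE 0.19, adjusted p = 0.0437). This adjusted p was the closest of the 4 to the threshold. Leaving out null replicate 1, 2 or 3 gave 0.107, 0.0818 and 0.127, and leaving out control replicate 2 or 3 gave 0.105 and 0.119. It was 0.0606 with no filter and 0.0759 without a variance trend, within a range of 0.0349 to 0.127 over 15 fits. The catalytic subunit G6pc, chosen after its values were seen, was at 1152.8, 685.1 and 419.1 in null mice and 1337.3, 2278.5 and 905.0 in control mice. The G6pc groups overlapped, and its log2 change of -1.01 missed the threshold (adjusted p = 0.267).

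The facilitative glucose carriers held the largest upward change of the 39. Slc2a1, or GLUT1, serves basal glucose uptake in many cell types. It read 253.5, 232.8 and 431.4 in null mice, against 102.8, 31.0 and 126.0 in control mice. The groups did not overlap, and null replicate 3 was the highest. The means were 305.9 ± 109.2 in null and 86.6 ± 49.5 in control mice (SD, n = 3 each). With all 6 mice the log2 change was 1.80, but its interval was wide (SE 0.45, 95% confidence interval 0.75 to 2.85). Slc2a1 did not pass (adjusted p = 0.0871). The control mean and the control values of 102.8 and 31.0 lay under the filter level. The fold is therefore a bound, at least 2.52-fold higher. Over 14 other fits the log2 change lay between 1.28, without control replicate 2, and 2.13, without control replicate 3. The change was 0.83 between the female mice and 2.29 between the means of the males. The adjusted p lay between 0.0692 and 0.242 over 14 other fits. Slc2a4, the insulin-responsive carrier of muscle and fat (log2 change 0.06), and Slc2a8, an intracellular hexose carrier (0.03), did not pass. Of the glucose carriers left out by the rule, Slc2a2 averaged 3574 in null and 6566 in control mice (log2 change -0.87, adjusted p = 0.0688). Slc5a1 averaged 7692 in null and 9626 in control mice (log2 change -0.31, adjusted p = 0.372).

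**Figure D2:**
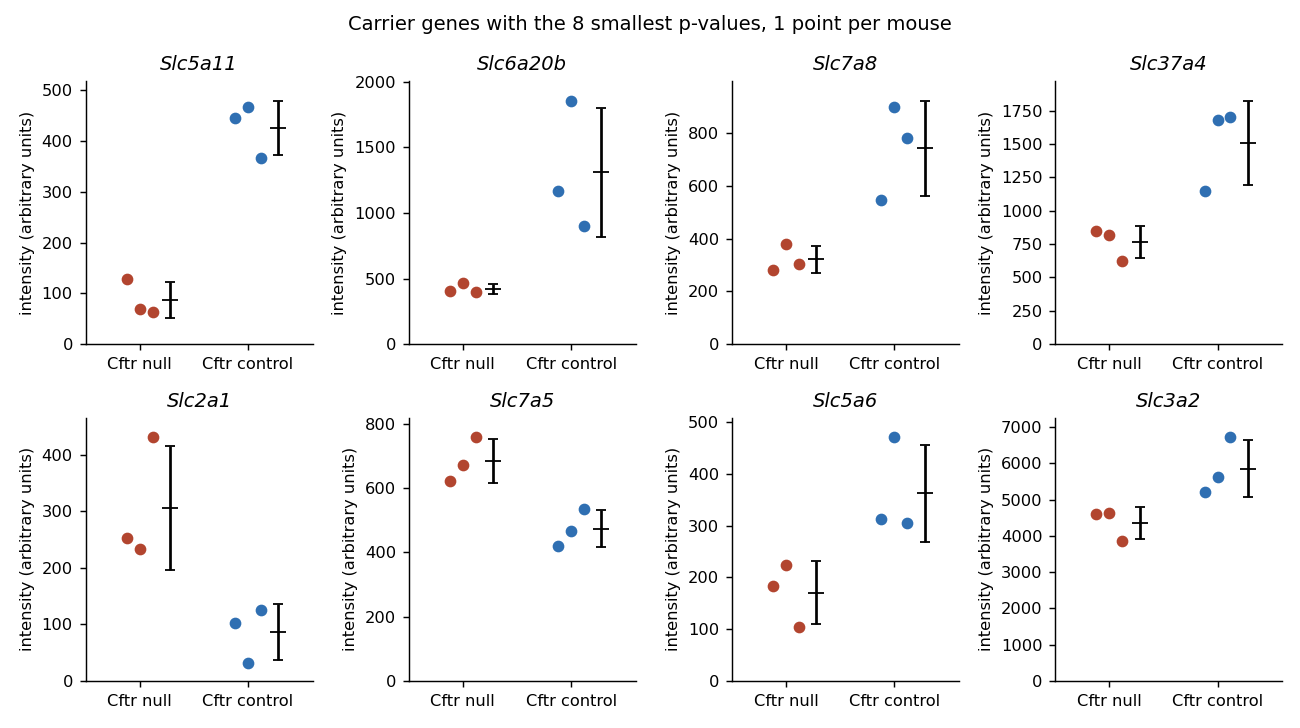
Intensity in arbitrary units (vertical axis, from 0) of the 8 carrier genes with the smallest p-values, null mice left and control mice right, 1 point per mouse, with the mean and SD of 3 mice as a bar. The groups do not overlap in any of the 8; Slc2a1 and Slc7a5 are higher in null mice and the other 6 lower, and Slc5a11, Slc6a20b, Slc7a8 and Slc37a4 are the 4 that passed.

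Among carriers of amino acids and amines that are coupled to sodium and chloride, 1 of 6 genes tested fell and 0 rose. That gene was Slc6a20b, which the RefSeq table also lists as XT3 and Sit1. The human gene SLC6A20 encodes a carrier of proline and other imino acids. Slc6a20b read 404.3, 465.3 and 399.8 in null mice, against 1166.1, 1857.9 and 903.7 in control mice. The null mice were close together, while the control mice spread over a wide range above them. The means were 423.1 ± 36.6 in null and 1309 ± 493 in control mice (SD, n = 3 each). It was 2.91-fold lower (log2 change -1.54, SE 0.24, 95% confidence interval -2.11 to -0.98, adjusted p = 0.0184). The call ended without null replicate 1 (adjusted p = 0.0882), null replicate 3 (0.0728) or control replicate 1 (0.0662). The adjusted p lay between 0.0126 and 0.0882 over the 15 other fits. Whether the probe set also reads a closely related gene copy was not tested.

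The other 5 of these carriers did not pass. Slc6a8, which takes up creatine, averaged 2596 ± 395 in null and 3204 ± 827 in control mice (SD, n = 3 each; log2 change -0.28). The serotonin carrier Slc6a4 averaged 586.4 ± 50.2 in null and 713.0 ± 226.0 in control mice (log2 change -0.23). Its dimmer probe set, whose name marks possible cross-hybridization, differed by 0.04. The taurine carrier Slc6a6 averaged 1344 ± 154 in null and 1342 ± 397 in control mice, a log2 change of 0.04 with a 95% confidence interval from -0.44 to 0.51. A dimmer Slc6a6 probe set, without such a mark in its name, differed by -0.12. The glycine carrier Slc6a9 (log2 change 0.24) and the GABA carrier Slc6a13 (0.29) were above 0, and their groups overlapped.

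Of the light chains and cationic amino acid carriers, 1 of 5 genes tested fell and 0 rose. Slc7a8, or LAT2, is an exchanger of neutral amino acids of the basolateral membrane. It read 281.0, 379.3 and 302.1 in null mice, against 544.0, 899.0 and 781.3 in control mice, with no overlap. The means were 320.8 ± 51.7 in null and 741.4 ± 180.8 in control mice (SD, n = 3 each), 2.23-fold lower (log2 change -1.16, SE 0.21, adjusted p = 0.0288). Leaving out null replicate 1 or 3 gave an adjusted p of 0.115 and 0.101, and leaving out control replicate 2 or 3 gave 0.069 and 0.0818. It was 0.0517 without a variance trend, within a range of 0.0209 to 0.115 over 15 fits.

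The related light chain Slc7a5, or LAT1, an exchanger of large neutral amino acids, lay the other way. Slc7a5 read 622.5, 671.5 and 758.4 in null mice, against 420.0, 467.8 and 533.6 in control mice. The groups did not overlap, but it did not pass (1.43-fold higher, log2 change 0.52, SE 0.14, adjusted p = 0.102). Both light chains pair with the heavy chain Slc3a2. The difference between the changes of Slc7a8 and Slc7a5 was not tested.

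Both heavy chains were lower in every null mouse than in any control mouse, without passing. Slc3a2 read 4599, 4619 and 3852 in null mice and 5218, 5619 and 6722 in control mice (log2 change -0.42, adjusted p = 0.163). Slc3a1, the heavy chain of the brush border cystine carrier, read 872.1, 1040.6 and 1075.8 in null mice and 1365.1, 1097.3 and 1711.9 in control mice (log2 change -0.46, adjusted p = 0.242). Slc7a9, the light chain that pairs with Slc3a1, had overlapping groups. It averaged 6901 ± 625 in null and 6520 ± 1461 in control mice (SD, n = 3 each), a log2 change of 0.10 with a 95% confidence interval from -0.30 to 0.50. Slc7a7, a basolateral light chain that exports cationic amino acids and pairs with Slc3a2, averaged 2558 ± 227 in null and 3352 ± 406 in control mice. The Slc7a7 groups did not overlap, and the log2 change of -0.39 missed the threshold (adjusted p = 0.178). The cationic amino acid carrier Slc7a2, which needs no heavy chain, had a log2 change of -0.31 and overlapping groups.

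**Figure D3:**
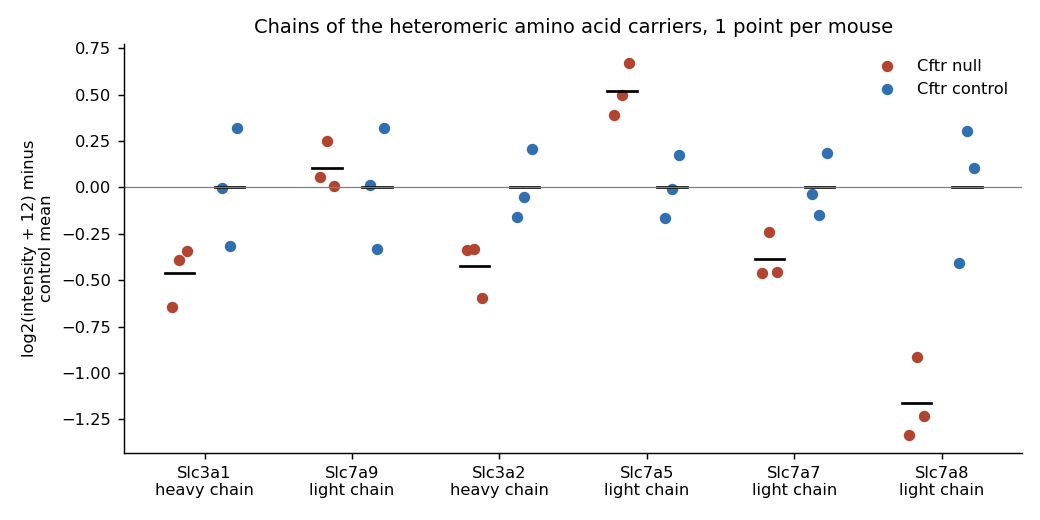
Log2(intensity + 12) of each mouse minus the control mean of the same gene (vertical axis) for 2 heavy chains and 4 light chains of heteromeric amino acid carriers, null mice left and control mice right within each gene, with group means as bars. Null means lie at -1.16 for Slc7a8, between -0.46 and -0.39 for Slc3a1, Slc3a2 and Slc7a7, at 0.10 for Slc7a9 and at 0.52 for Slc7a5; Slc7a8 is the only one of the 6 that passed.

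Of the carriers of acidic and small neutral amino acids, 0 of 3 genes passed, and all 3 had a log2 change above 0. They were the glutamate carrier Slc1a1 (0.54), the glutamine carrier Slc1a5 (0.36) and Slc1a4, which exchanges alanine, serine and cysteine (0.20). Their groups overlapped, and 0 of the 3 had an unadjusted p under 0.05. Of the 3 sodium-coupled neutral amino acid carriers of the Slc38a family, 0 passed in limma and 0 had an unadjusted p under 0.05. Slc38a2, which takes up small neutral amino acids, averaged 750.7 ± 88.6 in null and 746.6 ± 100.9 in control mice (SD, n = 3 each; log2 change 0.01, 95% confidence interval -0.33 to 0.35). Slc38a5, a glutamine carrier, was at 374.1, 439.6 and 1427.3 in null mice, against 534.5, 443.3 and 676.3 in control mice. Null replicate 3 alone was high, and without it the log2 change was -0.41, against 0.18 with all 6 mice. Slc38a10 had a log2 change of -0.23.

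The carriers of carboxylates, organic ions, nucleosides and nucleotide sugars gave 0 calls in limma over 14 genes tested, and 1, Slc29a1, had an unadjusted p under 0.05. The monocarboxylate carrier Slc16a1, which takes lactate and short-chain fatty acids, averaged 205.0 ± 30.1 in null and 164.1 ± 24.6 in control mice (SD, n = 3 each; log2 change 0.30, adjusted p = 0.473). The nucleoside carrier Slc29a1 read 225.9, 144.2 and 306.9 in null mice, against 297.5, 341.8 and 394.2 in control mice. Null replicate 3 lay just above the lowest control, and the change of -0.64 did not pass (adjusted p = 0.263). Another Slc29a1 probe set, with a name that marks possible cross-hybridization, differed by -0.14. Of 7 carriers of organic cations, carnitine and anions, 5 were below 0 and 2 above 0, between -0.54 for Slc22a17, a receptor of a siderophore-binding lipocalin, and 0.11 for Slc22a18. The carnitine carrier Slc22a5 averaged 406.5 ± 67.1 in null and 440.9 ± 116.8 in control mice (log2 change -0.09). Slc22a2 had a log2 change of -0.49, Slc22a12 of -0.12, Slc22a21 of -0.07 and Slc22a23 of 0.05. The steroid sulfate carrier Slc10a6 (-0.53), its family member Slc10a3 (-0.06) and the organic anion carrier Slco3a1 (-0.06) were also below 0. The Golgi carriers of CMP-sialic acid, Slc35a1 (0.23), and of UDP-galactose, Slc35a2 (0.10), were above 0.

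**Figure D4:**
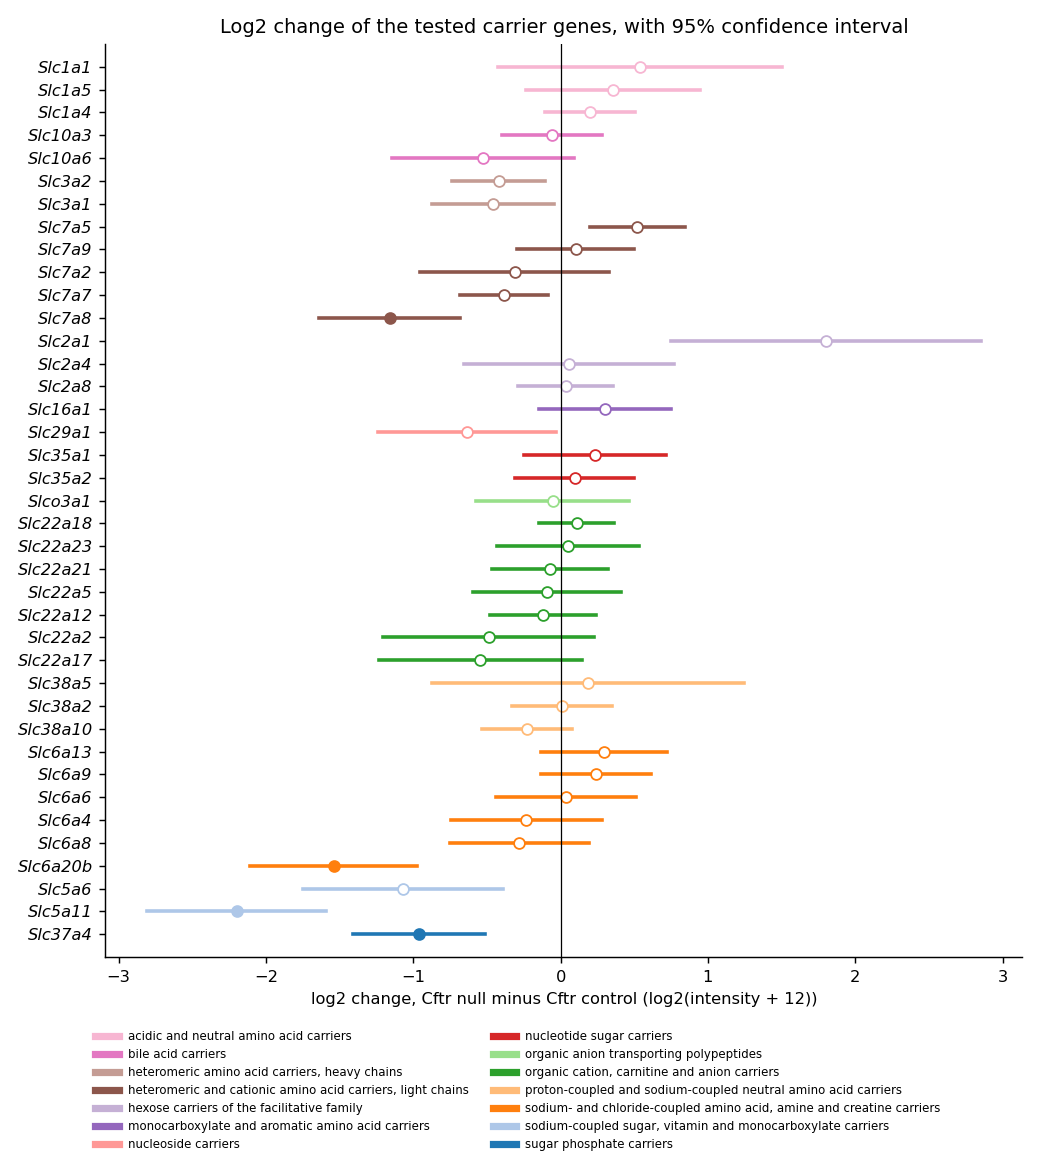
Log2 change, null minus control (horizontal axis), with its 95% confidence interval for the 39 tested carrier genes, grouped by class in colour; filled points passed the test at an adjusted p under 0.05. The 4 filled points, Slc5a11, Slc6a20b, Slc7a8 and Slc37a4, all lie below 0, and 19 of the 39 genes lie within 0.25 of 0.

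The other 26 carrier genes did not meet the filter and have no test. They were Slc1a2 and Slc1a6, Slc2a3, Slc6a2, Slc6a3, Slc6a12, Slc6a15 and Slc6a18, Slc7a1, Slc7a3, Slc7a6 and Slc7a11, Slc10a1, Slc15a2, Slc16a7 and Slc16a8, Slc17a1, Slc18a3, Slc22a4, Slc22a6 and Slc22a30, Slc29a2, Slc35a4, Slc38a4, Slco5a1 and Slco6c1. The highest value of any of their probe sets in any mouse was 243.2, for Slc6a18 in control replicate 1. In 6 of the 40 carrier probe sets that were not tested (15%) the groups did not overlap, where 11.6% of all 4821 untested probe sets did not. Null values lay below in 4 of the 6, or 10.0% of the 40, against 5.31% of all untested probe sets, and above in 2, or 5%, against 6.26%. Slc22a4, a carrier of ergothioneine, had the largest log2 difference of these 6, at 10.8, 14.6 and 5.9 in null mice, against 57.0, 104.0 and 38.6 in control mice. Slc16a8 and 1 probe set each of Slc17a1 and Slc2a8 were lower in null mice too. Slc7a3 and Slc7a11, carriers of cationic amino acids and of cystine, were higher. All values of these 6 lay under the filter level, so no fold is given.

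The effect of genotype was also compared between the sexes with an interaction term in limma. Of the 42 carrier probe sets 0 passed, as did 0 of 7601 (0.00% of all), and 1 carrier probe set, the brighter one of Slc29a1, had an unadjusted p under 0.05 (0.0304). With 1 female in each group this comparison has little precision. Among the 39 genes the spread of the log2 values within a group was wider in null mice for 16 and wider in control mice for 23.

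Several markers of intestinal cell types also differed between the groups, in both directions, and their part in the carrier results was not tested. Of 8 enterocyte markers, all 8 had a log2 change below 0, with a median of -0.64, and 1, the alkaline phosphatase Akp3, fell. Their summed intensity was between 32637 and 62712 in null mice, against 78410 and 90397 in control mice. Of 5 mast cell markers 3 rose, Mcpt1, Mcpt2 and Cpa3, and 2 were below 0 without passing, Kit (log2 change -0.04) and Tpsb2 (-0.38). The mast cell sum was between 4457 and 12089 in null mice, mostly from Mcpt1 and Mcpt2, against 664 and 881 in control mice. Of 5 smooth muscle markers all 5 were above 0 and Actg2 rose, with sums of 14610 to 18581 in null mice and 8221 to 12301 in control mice. The probe sets of Actg2 and Mcpt1 have names that mark possible cross-hybridization. Of 2 Paneth cell markers tested 1 rose, Mptx1, and the sum over 3 was between 6278 and 8245 in null mice, against 2180 and 4955 in control mice. Of 5 enteroendocrine markers all 5 were below 0 and 0 passed in limma, with 3 at an unadjusted p under 0.05, and the sum was between 6252 and 8385 in null mice, against 9528 and 10951 in control mice. In whole tissue, fewer cells of a type and less RNA per cell cannot be told apart. Dividing crypt cells, goblet cells, enteric neurons, T cells, macrophages, red cells and pancreas gave 0 passes among 18 markers tested in limma, with 3 at an unadjusted p under 0.05. Of all tested probe sets, 17.3% had an unadjusted p under 0.05, 1.13% passed as higher and 1.87% passed as lower.

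Genes that act on carriers were described from 4 further lists, each gene by its brightest tested probe set. Of 4 partner proteins tested, all 4 were below 0 and 1 fell: Pdzk1, a scaffold that holds carriers in the brush border, read 588.0, 1041.6 and 332.3 in null mice, against 3001, 2913 and 3032 in control mice (4.98-fold lower, adjusted p = 0.0151). The scaffold Slc9a3r1 did not pass (log2 change -0.50). Bsg, which accompanies Slc16a1 to the membrane, had a log2 change of -0.08. Of 9 kinases and ubiquitin ligases 1 fell, Sgk1, a kinase that raises the surface amount of several carriers. Sgk1 read 378.6, 655.7 and 1726.2 in null mice, against 4751, 5729 and 4562 in control mice (6.51-fold lower, adjusted p = 0.0254). The 8 others did not pass and the list's median log2 change was 0.10. Besides Sgk1, Akt1 had an unadjusted p under 0.05 in limma, as did 17.3% of all tested probe sets. Akt1 was higher in every null mouse than in any control mouse (log2 change 0.51, adjusted p = 0.0717).

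Of 13 transcription factors 1 fell, Ppara, a nuclear receptor for fatty acids (2.41-fold lower, adjusted p = 0.0151). The list's median was 0.03, with 7 factors above 0 and 6 below. Besides Ppara, an unadjusted p under 0.05 in limma was met by Nr1i3 (log2 change -0.76), Nr1i2 (-0.70) and Srebf1 (-0.62). Hif1a (0.46) and Atf4 (0.40) met it in the other direction. Of all tested probe sets 17.3% met it. Hnf4a, a regulator of enterocyte genes, read 897.6, 668.0 and 1878.2 in null mice, against 523.0, 1478.7 and 638.8 in control mice, with overlap (log2 change 0.39). Of 4 pump subunits and channels that set the gradients used by carriers, 0 passed in limma, 0 had an unadjusted p under 0.05, and the changes lay between -0.35 for Atp1b1 and 0.26 for Atp1b3. These counts stand beside the 1.13% of all tested probe sets that were higher and the 1.87% that were lower.

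The sequences before the start sites of the carriers that fell together are shown so that they can be compared. RefSeq start sites were found for 48 of the 65 carrier genes. For 3 of the 4 that fell, the 250 bases before the outermost start lay outside the annotated gene (GRCm38.p6). They follow 5′ to 3′ in the direction of the gene, with any match to the motifs named after them in capitals.
Slc37a4 (chr9:44396696-44396945, + strand): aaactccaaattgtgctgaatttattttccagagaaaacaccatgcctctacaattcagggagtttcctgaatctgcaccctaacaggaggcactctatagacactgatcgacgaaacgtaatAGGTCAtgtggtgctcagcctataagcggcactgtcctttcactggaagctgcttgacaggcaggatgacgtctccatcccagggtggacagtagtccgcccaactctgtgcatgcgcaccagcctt
Slc6a20b (chr9:123632539-123632788, - strand): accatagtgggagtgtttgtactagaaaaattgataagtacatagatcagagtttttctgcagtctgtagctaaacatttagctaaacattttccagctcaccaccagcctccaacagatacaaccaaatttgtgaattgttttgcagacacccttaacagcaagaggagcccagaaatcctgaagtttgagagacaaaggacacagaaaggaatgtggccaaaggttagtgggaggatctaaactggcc
Slc7a8 (chr14:54781887-54782136, - strand): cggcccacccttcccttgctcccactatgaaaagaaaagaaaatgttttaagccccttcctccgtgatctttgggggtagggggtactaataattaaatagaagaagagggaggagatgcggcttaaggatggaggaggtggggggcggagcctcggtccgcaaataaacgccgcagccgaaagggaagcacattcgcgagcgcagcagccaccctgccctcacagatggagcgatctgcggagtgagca
These windows, and that of Slc5a11, which overlaps the annotated gene and is not shown, were searched on both strands for 4 motifs. They were AGGTCA, read by nuclear receptors, GTTAAT, read by HNF1 factors, AGATAA, read by GATA factors, and TTTATG, read by CDX factors. AGGTCA was found once before Slc37a4, beginning 127 bases before the start, and once on the opposite strand before Slc5a11, 43 bases before the start. No other match was found in the 4 windows, and no matches overlapped. Of all 32851 windows of this length, 14.02% held AGGTCA, 6.43% GTTAAT, 9.99% AGATAA and 10.76% TTTATG. The 4 windows differed in base composition, with a GC content of 49.6% for Slc37a4, 60.8% for Slc5a11, 41.6% for Slc6a20b and 55.6% for Slc7a8, beside a median of 52.4% over all windows.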

How the data were processed

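Probe set intensities of 6 arrays were used as deposited by the authors. They are on a linear scale, with an equal 2%-trimmed mean on each array. The software, background and scaling steps behind these intensity values are not given in the sources used here, and detection calls were not used, so dim probe sets are described by level alone. Of 12488 probe sets, 66 control probe sets were set aside. Genes were named from 10833 probe sets with 1 symbol in the platform annotation. The RefSeq gene table holds the Entrez identifiers of all 82 carrier probe sets and changed 0 symbols, and 1 probe set with several symbols, including a carrier's, was left out.

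Values were turned into log2(intensity + 12), the pseudocount being the 10th percentile of the positive values, rounded. They were tested with limma 3.58.1 in R 4.3.3, two-sided, with empirical Bayes variances that follow a trend in intensity, over 7601 probe sets. The pseudocount understates changes of dim genes. A fold is given as a bound where the mean of the lower group was at or below 109.7. The function was tested on simulated data. The members and lists were chosen with earlier results of these data known. Named were all carriers that passed, and in each class up to 3 others with the largest change and 2 of the highest level. Other genes, such as G6pc, Hnf4a and the dim carriers, were named outside this rule, with their values known. The labels give each array as 1 mouse and state no pairing or batch, and replicate numbers follow the order of the samples. A probe set name with a letter s, f, r, i or g inserted ahead of its ending _at was taken to mark possible cross-hybridization.

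The alternatives were quantile normalization, equal medians, pseudocounts of 3 and 48, no filter, a filter at 288.7, sex as a covariate, eBayes without a trend or with robust variance, leaving out each mouse, and, for the median, averaging the probe sets of each gene.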

Additional observations from a re-analysis of the deposited data

How the results depend on the processing

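The number of carriers that passed as lower was 4 with all 6 mice. It was 4 with quantile normalization, equal medians, both other pseudocounts, the stricter filter, sex as a covariate and robust variance, 3 with no filter and 2 without a variance trend. Without 1 mouse it lay between 1 and 3. The number that passed as higher was 0 in limma in all 15 other fits, beside 2 at an unadjusted p under 0.05 with all mice. The interaction with sex gave 0 in the 6 other fits where it was run, beside 1 at an unadjusted p under 0.05 with all mice. Slc5a11 passed in 15 of 15 fits, Slc6a20b in 12, Slc7a8 in 10 and Slc37a4 in 8. The direction of the 4 could not turn when a mouse was left out, because their groups do not overlap. Of the carriers that did not pass with all mice, none passed in any other fit. The median log2 change over carrier genes was -0.06 with all mice and 0.0103 without null replicate 1, and the cause was not tested. Without 1 mouse it ranged from -0.10 to 0.01. No paired analysis was possible because the labels give no replicate numbers or litters. The number of mice limits how small a change could pass, and for the 26 dim genes the signal over background does.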
